A study of Mus musculus with 16 samples.

Results

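Cyclic AMP (cAMP) is the second messenger through which noradrenaline acts on brown fat, and the genes that make it, sense it, anchor its kinase and break it down are described here across 4 groups of mouse brown adipocytes. Members were the rows of the deposited count table whose symbol belongs to the adenylyl cyclases (Adcy), the catalytic and regulatory subunits of protein kinase A (PKA), the PKA inhibitors (Pki), the A-kinase anchoring proteins (Akap) or the cyclic nucleotide phosphodiesterases (Pde). This gave 59 rows of 54347, with 58 distinct symbols because *Pde2a* has 2 rows. They comprised 10 cyclases, 2 catalytic and 4 regulatory subunits, 3 inhibitors, 15 anchors and 25 phosphodiesterase rows. The filter on low counts kept 35 of them, namely 6 cyclases, all 6 PKA subunits, 2 inhibitors, 10 anchors and 11 phosphodiesterase rows. Only these 35 were tested.

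The cells were wt1-SAM cells, a brown preadipocyte line that carries the CRISPRa SAM system, in which guide RNAs bring transcriptional activators to a chosen gene. All 4 groups were differentiated with a cocktail that held 500 µM IBMX, a general phosphodiesterase inhibitor, until the first change of medium. Rosiglitazone at 0.5 µM was part of each differentiation medium. Plasmid (250 ng) was delivered on day 4 to cells in Opti-MEM, which was changed for differentiation medium 24 h later. Cells were harvested on day 7. Empty vector cells received the sgRNA plasmid without a guide, and sgRNA cells received pSgRNA-MS2-2+7, plasmids with guides against the long noncoding RNA gene *Gm15551*. Each plasmid was combined with control medium or, for the last 24 h, with the β-adrenergic agonist isoproterenol at 1 µM, and the labels gave replicates 3, 4, 5 and 6 in each of the 4 combinations. The labels name 1 line and do not say whether replicates were separate cultures, so p-values measure the spread between these 16 libraries, which may in part be technical.

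In adipocytes, β-adrenergic receptors act through the stimulatory G protein on membrane-bound cyclases, which make cAMP from ATP. cAMP binds the regulatory subunits of PKA and frees the catalytic subunits, which phosphorylate the lipolytic machinery and the transcription factor CREB. Anchors hold PKA at membranes, mitochondria or the cytoskeleton, Pki proteins block free catalytic subunits, and phosphodiesterases end the signal by hydrolysing cAMP, cGMP or both. Some phosphodiesterase genes are themselves known to be induced by cAMP.

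Total estimated counts ranged from 9053521 to 16546187 per library. One gene annotated as ribosomal RNA took 11.7 to 51.8% of them, and it exceeded 40% in 3 libraries, which were replicate 5 of the empty vector control and replicates 3 and 5 of stimulated empty vector cells. A count of 3, the limit that a count of 0 allows, corresponded to 0.166 to 0.390 CPM, the count scaled to a common library size by TMM. *Gm15551* lay between 0 and 1.35 CPM in empty vector and between 1.04 and 3.92 CPM in sgRNA libraries and was higher in the sgRNA library of 8 of 8 pairs with the same replicate number and treatment. The adipocyte label was read against the markers *Fabp4*, *Adipoq*, *Plin1*, *Cidec*, *Pparg*, *Lipe* and *Cebpa*, whose means in empty vector controls ran from 137 CPM for *Pparg* to 16127 CPM for *Fabp4*. Of the brown adipocyte markers, empty vector controls averaged 236 CPM for *Elovl3*, 37.9 CPM for *Ppargc1a* and 17.4 CPM for *Ebf2*. The other tested ones were low, with 1.61 CPM for *Cidea*, 1.10 CPM for *Prdm16*, 0.585 CPM for *Cox7a1* and 0.350 CPM for *Ucp1*. *Dio2* was the marker that did not pass the filter. *Ucp1* averaged 0.548 CPM in sgRNA controls, and 6.42 and 9.35 CPM in stimulated cells of the 2 plasmids.

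Levels of different genes were compared as CPM per kb of annotated exon length. One member dominated the cyclases: *Adcy6*, a cyclase inhibited by calcium, averaged 11.9 CPM per kb over the 16 libraries. In control cells *Adcy9* came next with 1.42 (empty vector) and 1.40 (sgRNA) CPM per kb, and *Adcy3* had 0.262 and 0.332. In stimulated cells *Adcy3* averaged 1.47 and 1.64 and *Adcy9* 1.40 and 1.33 CPM per kb. Of the PKA subunits, *Prkar2b*, the type II regulatory subunit typical of fat, reached 63.9 CPM per kb over the 16 libraries. *Prkaca*, the main catalytic subunit, averaged above *Prkar1a*, the ubiquitous type I regulatory subunit, in control cells (48.7 against 38.9 CPM per kb with the empty vector and 42.4 against 36.6 with the guides) and below it in stimulated cells (41.01 against 45.02 and 36.7 against 43.2). *Prkar2a* followed with 12.1, the second catalytic gene *Prkacb* with 4.21 and *Prkar1b* with 1.66. The leading anchors were *Akap1*, which holds PKA at the outer mitochondrial membrane, at 15.7 and *Akap11* at 7.42 CPM per kb. *Akap12*, a scaffold at the plasma membrane, averaged 6.06 CPM per kb, close to the nuclear anchor *Akap8* at 5.80, which was the higher of the pair in stimulated empty vector cells (5.62 against 5.45). Among the phosphodiesterase symbols the highest level belonged to *Pde6d* with 9.10, a prenyl-binding protein that bears the name as a partner of the retinal enzyme and does not itself hydrolyse cyclic nucleotides. Of the enzymes, *Pde1a*, activated by calcium and calmodulin, averaged above the cAMP-specific *Pde4b* in control cells (4.69 against 2.89 CPM per kb with the empty vector and 4.89 against 2.55 with the guides) and below it in stimulated cells (4.11 against 5.81 and 4.55 against 5.61). Of the inhibitors, *Pkig* averaged 8.67 and *Pkia* 1.16 CPM per kb.

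The 24 rows that did not pass the filter held between 0 and 116 counts summed over the 16 libraries, and the largest count in any library was 17. *Adcy2*, a brain cyclase, had no count in any library. *Pkib*, the third inhibitor, held 82 counts in all and averaged between 0.312 and 0.717 CPM in the groups, close to the floor. *Pde3a*, the cardiac relative of the adipocyte enzyme *Pde3b*, and the 3 retinal catalytic genes *Pde6a*, *Pde6b* and *Pde6c* did not pass either.

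**Figure D1:**
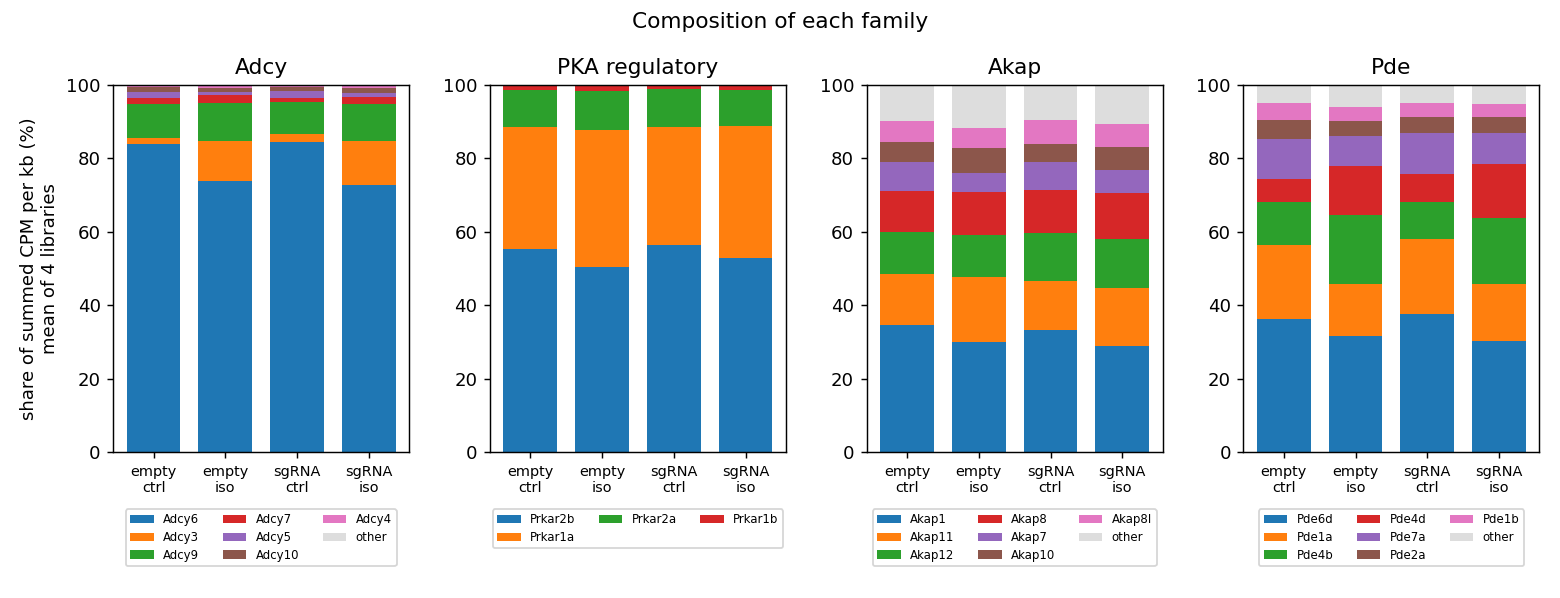
Share (%) of each member in the CPM per kb summed over its family (vertical axis) in the 4 groups (horizontal axis; empty, empty vector; ctrl, control; iso, isoproterenol), as the mean of 4 libraries for cyclases, PKA regulatory subunits, anchors and phosphodiesterases. *Adcy6* takes 84.0 and 84.5% of the cyclase bar in control cells and 73.7 and 72.8% in stimulated cells, and the segments of *Adcy3*, *Pde4b* and *Pde4d* are wider under isoproterenol.

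Isoproterenol against control, averaged over both plasmids, asked which of these genes respond to 24 h of β-adrenergic stimulation. *Adcy3*, *Pde4d* and *Pde10a* rose, *Adcy5* and *Akap7* fell, and the other 30 tested rows did not pass. A gene was called when edgeR's quasi-likelihood test gave an adjusted p under 0.05 (Benjamini-Hochberg over all 13150 tested genes) and its log2 fold change exceeded 0.5 in size. The 5 called rows were 14.3% of the 35 tested, beside 2.65% of all tested genes, with 3 higher (1.33% of all genes were called higher) and 2 lower (1.32%). With the replicate number as a block 7 members were called, which is 20% of the members beside 5.7% of all genes. Of these, 4 were higher (3.09% of all genes) and 3 lower (2.61%). An adjusted p under 0.05 at any size of change was reached by 5 members without the block (4.49% of all genes) and 15 with it (21.3%). The 2 members called with the block alone were *Pde4b*, which was higher, and *Adcy10*, which was lower. DESeq2 called 7 rows, adding *Pde4b* and 1 row of *Pde2a* to the 5, beside 3.22% of the genes it tested. Without the 3 libraries rich in ribosomal RNA, all of them from empty vector cells, 3 members were called, *Adcy3*, *Pde4d* and *Akap7*, beside 1.87% of all genes. The median log2 fold change was 0.045 over the tested members and 0.0047 over all genes, and 57.1% of the members and 51.0% of all genes had a value above 0. The pairs below join libraries of the same replicate number and plasmid, and both plasmids draw on replicates 3, 4, 5 and 6. The share of all genes that moved alike in every pair was not counted, so counts of pairs are descriptions.

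**Figure D2:**
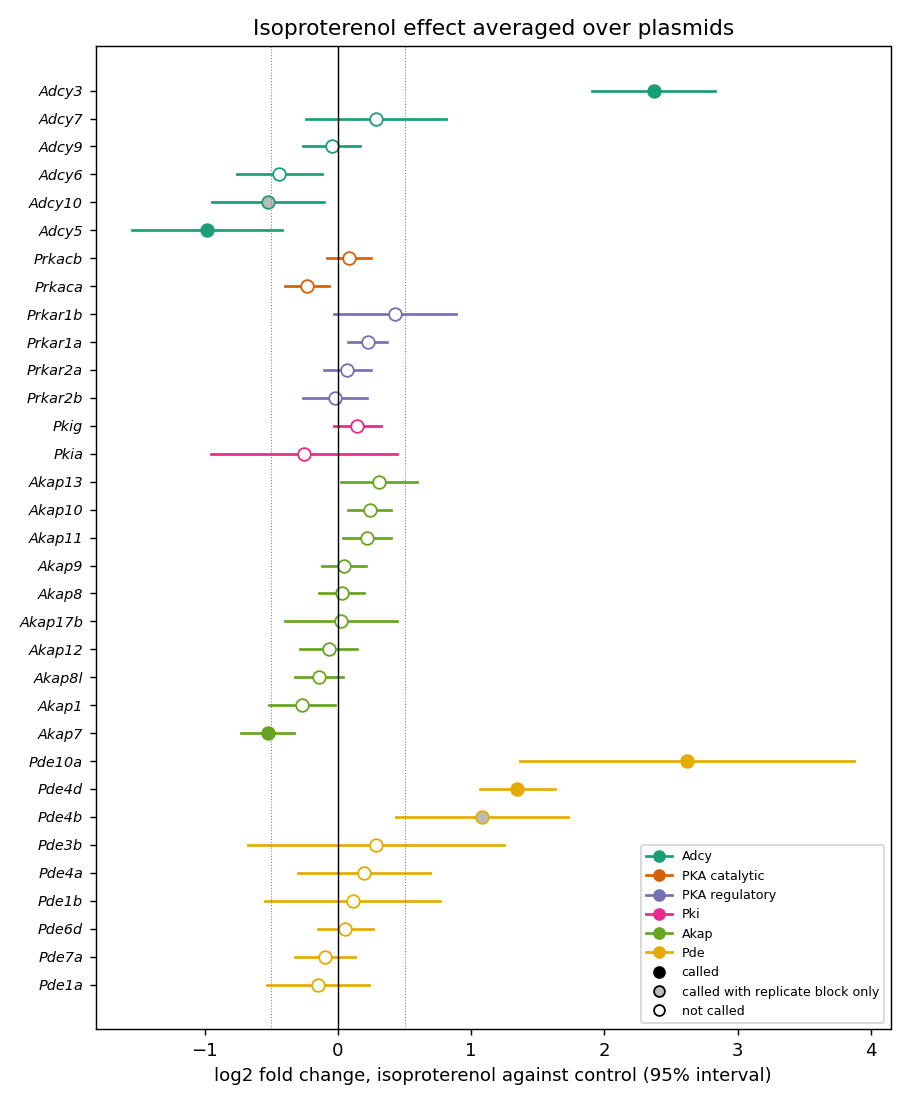
Log2 fold change with its 95% interval (horizontal axis) for isoproterenol against control averaged over plasmids, for the 33 tested members other than the *Pde2a* rows (vertical axis), ordered within each family. Filled points are called, grey points are called with the replicate block alone, and dotted lines mark the bound of 0.5; *Pde10a* and *Adcy3* lie farthest to the right and *Adcy5* farthest to the left.

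*Adcy3* showed the change with the smallest p among the members. This cyclase is best known from olfactory neurons and the control of body weight, and the authors name it as a brown adipose marker. In empty vector cells it measured 2.11, 1.77, 1.43 and 1.25 CPM in control libraries of replicates 3, 4, 5 and 6 and 9.79, 6.03, 9.67 and 11.3 CPM in the stimulated libraries. The sgRNA libraries gave 3.01, 1.67, 2.25 and 1.37 CPM without and 10.7, 5.71, 14.3 and 10.2 CPM with isoproterenol. Every stimulated library lay above every control library of either plasmid. Control and stimulated libraries did not overlap, in either direction, for 1.46% of all tested genes. Replicate 4 had the smallest stimulated level in both plasmid arms. *Adcy3* rose in 8 of 8 pairs, by 2.37 on the log2 scale with an SE of 0.22 (adjusted p = 7.36e-06). *Adcy3* (ENSMUSG00000020654.15, chromosome 12:4133103-4213525, plus strand, GRCm38) shares 22.1% of its exon bases with *Cenpo* on the opposite strand, and since the use of read strand was not given, part of its counts could belong to that gene. *Cenpo* itself was higher under isoproterenol in 4 of 8 pairs.

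None of the other tested cyclases rose. *Adcy6* (ENSMUSG00000022994.9, chromosome 15:98589973-98610076), the main cyclase, measured 88.0, 85.7, 121 and 73.4 CPM in empty vector controls of replicates 3 to 6 and 49.2, 60.5, 107 and 65.9 CPM after stimulation. In sgRNA cells the levels were 90.0, 79.4, 117 and 85.4 CPM and 64.9, 54.2, 79.9 and 64.6 CPM. The stimulated library was lower in 8 of 8 pairs, but replicate 5 stood above the others and the groups overlapped. The log2 fold change of -0.44 (SE 0.15) did not pass (adjusted p = 0.117), and with the block the adjusted p was 0.000482 at a change of -0.45, within the bound of 0.5.

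*Adcy5* (ENSMUSG00000022840.9, chromosome 16:35154877-35305738), a relative of *Adcy6* that is likewise inhibited by calcium, fell by 0.98 on the log2 scale, with an SE of 0.26 and an adjusted p of 0.0450, and was lower in 8 of 8 pairs. Its levels were low, with 1.32, 1.84, 2.21 and 1.87 CPM in empty vector controls against 0.387, 0.941, 1.15 and 1.18 CPM after stimulation, and with 1.89, 1.67, 1.72 and 2.89 CPM against 0.533, 1.02, 0.721 and 1.69 CPM in sgRNA cells. The stimulated libraries lay below the controls of the same plasmid in empty vector cells and overlapped with them in sgRNA cells. Counts were 3 to 38 per library, and the call was lost under 19 of 27 alternative settings, with adjusted p-values up to 0.220. Without the 3 libraries rich in ribosomal RNA the adjusted p was 0.173. *Adcy10*, the soluble cyclase activated by bicarbonate, averaged 2.14 ± 0.294 CPM (SD, n = 4) in empty vector controls and 1.24 ± 0.300 CPM after stimulation, and 1.69 ± 0.439 and 1.42 ± 0.428 CPM in sgRNA cells. It was lower in 8 of 8 pairs and passed with the block (log2 fold change -0.51, adjusted p = 0.0385) but not without it (-0.52, SE 0.20, adjusted p = 0.158). *Adcy9*, which is widely expressed, had a log2 fold change of -0.048 (95% interval -0.26 to 0.17), and *Adcy7*, which was higher in 6 of 8 pairs, of 0.28 (-0.24 to 0.81).

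As a description, *Adcy3* went from 1.67 ± 0.463% (SD, n = 4) to 10.97 ± 3.39% of the summed cyclase level per kb in empty vector cells and from 2.06 ± 0.694% to 11.99 ± 2.49% in sgRNA cells. The summed cyclase level itself was higher under isoproterenol in 1 of 8 pairs, with means of 16.1 and 13.9 CPM per kb in empty vector control and stimulated cells.

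**Figure D3:**
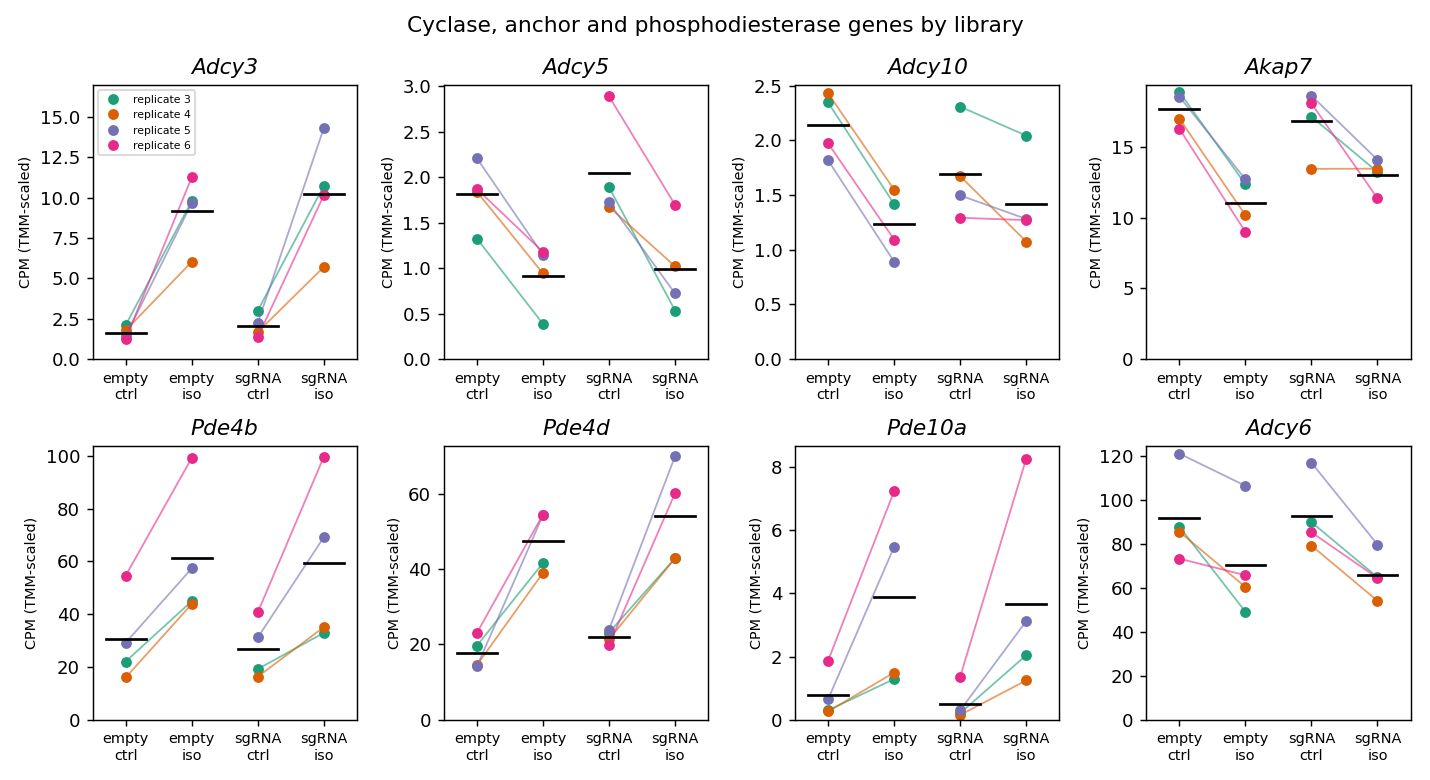
CPM (vertical axis, linear, from 0) in each of the 16 libraries by group (horizontal axis) for 8 members, with replicates in colour, lines between the control and stimulated library of the same number and plasmid, and black bars for group means. *Adcy3* and *Pde4d* show no overlap between control and stimulated libraries, while *Pde4b* and *Pde10a* rise from different levels in replicates 3 to 6.

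Of the phosphodiesterases, *Pde4d* and *Pde4b* degrade cAMP alone and *Pde10a* degrades both cAMP and cGMP. *Pde4d* (ENSMUSG00000021699.17, chromosome 13:108449948-109953461) measured 19.7, 14.5, 14.2 and 23.1 CPM in empty vector controls and 41.6, 39.0, 54.3 and 54.5 CPM after stimulation. The sgRNA controls had 23.2, 21.4, 23.9 and 19.9 CPM and the stimulated sgRNA libraries 42.9, 42.9, 70.0 and 60.2 CPM. Again no control library reached any stimulated one. *Pde4d* rose in 8 of 8 pairs, with a mean difference of 1.35 on the log2 scale (adjusted p = 1.38e-05, SE 0.13), and this call held under all 27 alternative settings, as did that of *Adcy3*.

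*Pde4b* (ENSMUSG00000028525.16, chromosome 4:102087543-102607259) was the more abundant of the pair per kb and varied with the replicate number. Its levels were 22.1, 16.03, 29.2 and 54.6 CPM in empty vector controls, 44.96, 43.9, 57.4 and 99.3 CPM after stimulation, 19.2, 16.3, 31.2 and 40.7 CPM in sgRNA controls and 33.0, 35.1, 69.2 and 99.7 CPM in stimulated sgRNA cells. Replicate 6 was highest in all 4 groups, and the control library of replicate 6 with empty vector exceeded several stimulated libraries. The log2 fold change was 1.08 with an SE of 0.31 without the block (adjusted p = 0.0567) and of 0.082 with it (adjusted p = 1.73e-07), and the stimulated library was higher in 8 of 8 pairs.

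*Pde10a* (ENSMUSG00000023868.17, chromosome 17:8525372-8986648) was scarce. It measured 0.301, 0.263, 0.649 and 1.87 CPM in empty vector controls, 1.29, 1.49, 5.47 and 7.23 CPM after stimulation, 0.210, 0.152, 0.299 and 1.37 CPM in sgRNA controls and 2.04, 1.24, 3.12 and 8.26 CPM in stimulated sgRNA cells. Control libraries held as few as 2 counts, and replicate 6 was again the highest in each group. Outside replicate 6 no control library held more than 5 counts, so the gene passed the filter through its stimulated libraries. The fit without the filter also called *Pde10a*. *Pde10a* rose in 8 of 8 pairs, by 2.62 on the log2 scale with an SE of 0.59 (adjusted p = 0.0175). Without the 3 libraries rich in ribosomal RNA the adjusted p was 0.0627, and without replicates 3, 4 or 5 it lay at 0.122, 0.0613 and 0.123.

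The other tested phosphodiesterases did not pass. *Pde1a* had a log2 fold change of -0.15 (95% interval -0.53 to 0.23), *Pde6d* of 0.057 (-0.15 to 0.26) and *Pde3b*, the insulin-activated enzyme of fat cells, of 0.29 (-0.68 to 1.25). With the block the value of *Pde3b* was 0.40 (SE 0.19, adjusted p = 0.165). Summed over all 25 rows, phosphodiesterase RNA per kb was higher under isoproterenol in 8 of 8 pairs, with means of 23.9 ± 2.70 and 30.0 ± 3.47 CPM per kb (SD, n = 4) in empty vector cells and 24.5 ± 2.50 and 30.4 ± 3.94 in sgRNA cells. The share of *Pde4d* in this sum went from 6.16 ± 0.971% to 13.2 ± 2.16% and from 7.59 ± 1.17% to 14.7 ± 2.67%. *Pde6d*, which does not hydrolyse cyclic nucleotides, took 36.3% of this sum in empty vector controls and 31.7% after stimulation. Shares of the sum are therefore not shares of enzyme RNA. Both *Pde2a* rows are also part of it. These sums are descriptions and were not tested.

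*Pde2a*, an enzyme stimulated by cGMP, stood as the symbol of 2 rows. The first (ENSMUSG00000030653.17) bears the name *Gm45837* in the Gencode annotation used for lengths, and 95.6% of its exon bases are shared with the second (ENSMUSG00000110195.1), which is *Pde2a* there. Reads moved between the rows from library to library: the first had counts in 5 of 16 libraries, as in 56 against 0 in 1 sgRNA control and 0 against 105 in 1 empty vector control. The fold changes of the single rows are therefore uncertain, including the calls that DESeq2 gave to a *Pde2a* row for isoproterenol, averaged and in empty vector cells, and for the guides in stimulated cells. With both rows summed, *Pde2a* differed by 0.15 on the log2 scale under isoproterenol, with an SE of 0.24 and an adjusted p of 0.812.

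None of the 6 PKA subunit genes was called for isoproterenol by edgeR, with or without the block, or by DESeq2. In edgeR 2 of them, *Prkaca* and *Prkar1a*, had an unadjusted p under 0.05, beside 17.7% of all tested genes. With the block 3 of the 6 did, beside 33.5% of all genes. *Prkaca* measured 119, 126, 134 and 106 CPM in empty vector controls and 94.4, 91.5, 126 and 96.6 CPM after stimulation, and 115, 105, 108 and 93.8 CPM against 94.8, 83.1, 97.5 and 89.8 CPM in sgRNA cells. It was lower in 8 of 8 pairs, and its mean difference on the log2 scale was -0.23 ± 0.078 (SE), with an adjusted p of 0.117, or 0.00797 with the block. *Prkar1a* was higher in 7 of 8 pairs, with group means of 168 ± 18.9 and 195 ± 15.8 CPM in empty vector and 158 ± 11.6 and 187 ± 10.1 CPM in sgRNA cells. The mean difference was 0.22 ± 0.069 (SE) on the log2 scale, with an adjusted p of 0.0791, or 0.00557 with the block. *Prkar1b*, a type I subunit best known from brain, measured 6.44, 7.49, 3.12 and 5.50 CPM in empty vector controls and 7.21, 9.68, 4.96 and 9.76 CPM after stimulation, and 5.25, 6.99, 2.92 and 5.24 CPM against 7.20, 7.47, 4.00 and 7.70 CPM in sgRNA cells. Replicate 5 was lowest in each group, and the groups overlapped. It was higher in 8 of 8 pairs by 0.43 ± 0.22 (SE), with an adjusted p of 0.325, or 0.00340 with the block. All 3 differences were inside the bound of 0.5. The intervals left little room for a larger change in *Prkar2b* (-0.021, -0.26 to 0.22), *Prkar2a* (0.071, -0.10 to 0.25) or *Prkacb* (0.084, -0.080 to 0.25). The inhibitor *Pkig* had a log2 fold change of 0.15 (SE 0.082) and *Pkia* of -0.25 (SE 0.33). The spread of *Pkia* came with replicate 6, which held 9.66, 6.65, 8.74 and 6.00 CPM in empty vector control and stimulated cells and in sgRNA control and stimulated cells, while the other 12 libraries lay between 2.40 and 4.25 CPM.

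Catalytic and regulatory RNA were also compared within each library. Summed per kb, the catalytic genes were lower under isoproterenol in 8 of 8 pairs, with means of 53.0 ± 4.56 and 45.6 ± 6.48 CPM per kb in empty vector cells and 46.2 ± 3.35 and 40.8 ± 2.62 in sgRNA cells. The regulatory genes were higher in 6 of 8 pairs. The ratio of regulatory to catalytic RNA was 2.30, 2.13, 2.07 and 2.38 in empty vector controls and 2.67, 2.76, 2.56 and 2.79 after stimulation, and 2.29, 2.33, 2.49 and 2.75 against 2.75, 2.92, 3.22 and 2.99 in sgRNA cells. It was higher with isoproterenol in 8 of 8 pairs and higher with the guides in 7 of 8. The ratio was formed after the values of its members were seen and was not tested.

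**Figure D4:**
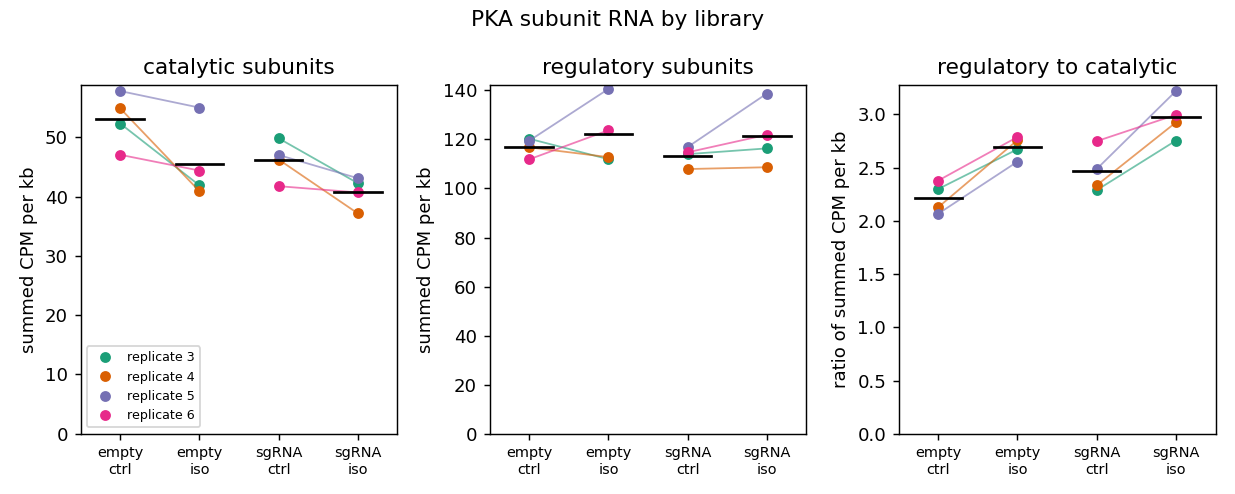
Summed CPM per kb of the 2 catalytic genes (left), of the 4 regulatory genes (middle) and their ratio (right) on linear vertical axes from 0, in each of the 16 libraries by group (horizontal axis), with replicates in colour and group means as black bars. The ratio lies between 2.07 and 2.75 in control libraries and between 2.56 and 3.22 in stimulated libraries and goes up along each of the 8 lines.

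Among the anchors, *Akap7* (ENSMUSG00000039166.16, chromosome 10:25169090-25307870), a small anchor of membranes and ion channels, was the only one called. It measured 18.9, 17.01, 18.6 and 16.3 CPM in empty vector controls and 12.4, 10.2, 12.7 and 9.0002 CPM after stimulation, and 17.1, 13.5, 18.6 and 18.1 CPM against 13.2, 13.5, 14.1 and 11.4 CPM in sgRNA cells. Replicate 4 of the sgRNA cells was the 1 pair without a decrease. *Akap7* fell by 0.53 on the log2 scale, with an SE of 0.093 and an adjusted p of 0.00352, close to the bound of 0.5, and lost the call without replicate 3 (adjusted p = 0.0636) and, by size alone, without replicate 6 or its stimulated library of either plasmid. *Akap1* had a log2 fold change of -0.27 (SE 0.12), *Akap11* of 0.22 (SE 0.084) and *Akap12* of -0.070 (SE 0.10). With the block the adjusted p was 0.0149 for *Akap1*, lower in 7 of 8 pairs, and 0.0229 for *Akap11*, higher in 8 of 8 pairs. The other 6 tested anchors lay between -0.14 and 0.31, of which *Akap10* (0.24) and *Akap13* (0.31) had an adjusted p of 0.0269 and 0.00370 with the block.

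Within empty vector cells alone 3 members were called, *Adcy3*, *Pde4d* and *Akap7*, beside 0.829% of all genes, and with the block 5, when *Pde4b* and *Pde10a* were added (4.47% of all genes). Within sgRNA cells alone 2 members were called, *Adcy3* and *Pde4d*, beside 0.7% of all genes, and with the block 5, when *Pde4b*, *Pde10a* and *Adcy5* were added (3.9%). The libraries of control and stimulated cells did not overlap for 5 of the 35 members with the empty vector (4.08% of all genes) and for 5 with the guides (7.23%). The difference between the plasmid arms was tested as an interaction, and no member was called, as no gene was (0%), either with or without the block, and DESeq2 called no member. One of the 35 rows, that of *Pde2a* with split reads, reached an unadjusted p below 0.05 (0.395% of all genes), as did 2 rows in the fit with the block (1.51%). For *Adcy3* the log2 fold change was 2.45 (SE 0.31) with the empty vector and 2.29 (SE 0.30) with the guides, and the difference was -0.15 with a 95% interval from -1.06 to 0.75. For *Akap7* the values were -0.69 (SE 0.13) and -0.37 (SE 0.13, adjusted p = 0.350), with a difference of 0.32 (-0.078 to 0.71). *Pde4d* changed by 1.40 (SE 0.19) and 1.29 (SE 0.19), with a difference of -0.12 (-0.67 to 0.44). The arms share no library. Across the 33 tested members other than the *Pde2a* rows, the fold changes of the arms had a Pearson correlation of 0.975 and a Spearman correlation of 0.930, and 29 had the same sign. With both *Pde2a* rows included the Pearson value was 0.0633. Over all 13150 tested genes it was 0.526, and 9937 had the same sign. Genes are not independent replicates, and these values are descriptions.

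**Figure D5:**
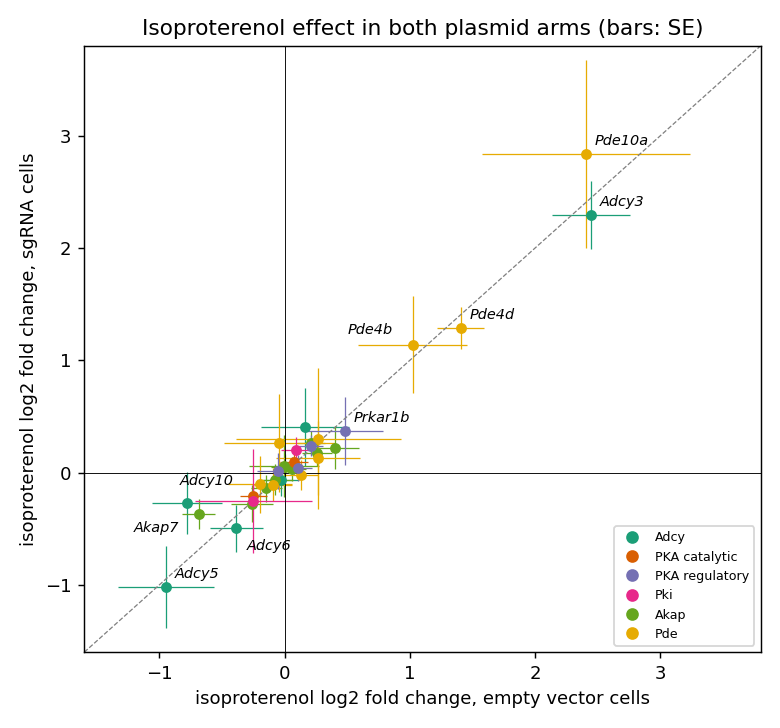
Isoproterenol log2 fold change in empty vector cells (horizontal axis) against that in sgRNA cells (vertical axis) for the 33 tested members other than the *Pde2a* rows, with SE bars, a dashed line of equality and colours for families. *Adcy3*, *Pde10a*, *Pde4d* and *Pde4b* lie at the upper right near the line and *Adcy5* at the lower left.

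The sgRNA cells against empty vector cells asked whether activation of *Gm15551* moved these genes. No member was called by edgeR averaged over treatments, in control cells or in stimulated cells, and neither was any of the 13150 genes (0% in each comparison). *Gm15551* itself, with 13 to 56 counts in the sgRNA libraries, was thus not called. The absence of a call therefore does not show that a gene stayed unchanged. An unadjusted p under 0.05 was reached by 3, 0 and 1 of the 35 members in these comparisons, and by 3.32%, 1.48% and 1.49% of all genes. With the block no member was called either, beside 0.266%, 0.0304% and 0.122% of all genes. There, 7, 2 and 3 members and 11.5%, 5.73% and 7.29% of all genes had an unadjusted p under 0.05. Libraries of both plasmids did not overlap for *Akap12* in control cells (1.3% of all genes) and for a *Pde2a* row in stimulated cells (1.03%). DESeq2 called the *Pde2a* row with split reads in stimulated cells (0.00575% of the genes it tested there) and no other member for the guides. The 3 members with an unadjusted p under 0.05 on average were *Akap12* (0.23, SE 0.10), *Akap8l*, which binds RNA and chromatin (0.20, SE 0.085), and *Prkaca* (-0.18, SE 0.078). For *Prkaca* the value was -0.065 once the share of ribosomal RNA entered the fit as a covariate and -0.092 without the 3 libraries rich in it. *Prkaca* averaged 121 ± 12.04 and 102 ± 15.8 CPM in empty vector control and stimulated cells and 105 ± 8.76 and 91.3 ± 6.34 CPM in sgRNA cells, lower with the guides in 7 of 8 pairs. *Prkar1b* was lower with the guides in 8 of 8 pairs, with a mean log2 change of -0.22 (95% interval -0.68 to 0.24), which was -0.54 with that covariate and -0.45 without those libraries (adjusted p = 0.753 and 1.00). For *Adcy3* and *Pde4d* the changes were 0.24 (-0.22 to 0.69) and 0.25 (-0.031 to 0.53), and the intervals still hold changes of more than 0.5. The value of *Adcy3* was 0.40 with the covariate.

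Apart from isoproterenol, replicate number accounted for much of the variation. Its share of the variance of log2 CPM had a median of 38.8% over the 35 tested members, against 46.8% over all tested genes, and the 4 groups had a median share of 29.9% against 16.7%. Replicate number took 89.8% for *Pde1a*, 87.2% each for *Pkia* and *Prkar2b*, 86.2% for *Pde1b* and 84.0% for *Pde3b*. *Pde1a* was lowest in replicate 6 of each group, with 17.03, 16.7, 21.2 and 17.9 CPM, against 34.4, 31.8, 35.0 and 34.7 CPM in replicate 3. *Pde3b* lay between 2.70 and 4.33 CPM in replicates 5 and 6 and between 0.608 and 1.72 CPM in replicates 3 and 4. For *Adcy3* and *Pde4d* the same share was 4.32% and 4.29%.

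The genes around the family were read from lists of the same pathway. These lists were written with earlier results of these data known, so their counts are descriptions and not independent support. Over all tested genes, 1.33% were called higher and 1.32% lower under isoproterenol, or 3.09% and 2.61% with the block. Of 14 transcripts known to be driven by cAMP outside the family, 12 were tested and 6 rose under isoproterenol with and without the block. They were *Ucp1*, the uncoupling protein (log2 fold change 4.03, SE 0.37), the nuclear receptor *Nr4a3* (2.90, SE 0.57), the receptor partner *Ramp3* (2.85, SE 0.49), the nuclear receptor *Nr4a1* (2.24, SE 0.22), the kinase *Sik1* and the coactivator *Ppargc1a*. None of the 4 tested G protein α subunits, 6 tested receptors, receptor kinases and arrestins, 5 tested cAMP effectors other than PKA and 9 tested CREB proteins and coactivators was called by edgeR, with or without the block, or by DESeq2. Without the block 1 α subunit and 1 gene of the receptor list reached an unadjusted p below 0.05. With it 2 α subunits, 3 genes of the receptor list, 1 effector and 3 genes of the CREB list did. Over all tested genes 17.7% reached it without the block and 33.5% with it. Inside the bound of 0.5, edgeR with the block gave the arrestin *Arrb1* (log2 fold change 0.38) an adjusted p of 0.00699, the inhibitory α subunits *Gnai2* (-0.17) and *Gnai3* (0.19) an adjusted p of 0.0112 and 0.0357, and the CREB family member *Crem* (0.35) an adjusted p of 0.0261. The fold changes here are those without the block, where the adjusted p of these genes lay between 0.239 and 0.454. Of 11 tested PKA anchors without an Akap symbol 3 reached an unadjusted p below 0.05 (17.7% of all genes) and none was called. With the block *Ezr* was higher (0.71, SE 0.20, adjusted p = 0.0551 without it) and *Pde4dip* (-0.54, SE 0.15, adjusted p = 0.0567) and *Synm* (-0.82, SE 0.38, adjusted p = 0.273) were lower, and DESeq2 called the first 2 of these. All 5 lipolytic PKA targets were tested, of which *Lipe*, the hormone-sensitive lipase (-0.69, SE 0.15), and *Pnpla2*, the adipose triglyceride lipase (-0.67, SE 0.18), fell. With the block *Plin1*, the lipid droplet coat protein, was also lower (-0.57 without the block, adjusted p = 0.114, and 0.000217 with it). The other members of this list stayed inside the bound of 0.5. They were *Abhd5* (-0.45, SE 0.069, adjusted p = 0.00129, or 9.1e-07 with the block) and *Mgll* (-0.19, SE 0.14, adjusted p = 0.540, or 0.0329 with the block).

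Markers of cell type were read in the same contrasts. For isoproterenol 1.33% of all tested genes were called higher and 1.32% lower, and with the block 3.09% and 2.61%. Of the 7 adipocyte markers 3 fell and none rose, 5 with the block, and their summed level ranged from 13474 to 23016 CPM in empty vector controls, 9874 to 17784 CPM after stimulation, 16807 to 21522 CPM in sgRNA controls and 10329 to 19837 CPM after stimulation. Of the 7 tested brown adipocyte markers *Ucp1* and *Ppargc1a* rose, and *Cidea* was added with the block. *Ebf2*, a transcription factor of brown fat, was lower by less than the bound of 0.5 (-0.48, SE 0.10, adjusted p = 0.0109, or 0.000379 with the block), with means of 17.4 and 12.5 CPM in empty vector and 18.1 and 13.1 CPM in sgRNA cells. The list had summed levels of 214 to 421 and 261 to 470.1 CPM in empty vector control and stimulated cells and 242 to 444 and 344 to 584 CPM in sgRNA cells. Of 5 smooth muscle markers 3 were tested, of which none was called without the block and 3 were lower with it. Without the block 1 of them had an unadjusted p under 0.05, beside 17.7% of all genes. The summed smooth muscle level was 4.598 to 34.5 CPM in empty vector controls and 3.43 to 19.5 CPM after stimulation. In sgRNA cells it was 4.03 to 33.4 and 3.28 to 19.9 CPM. Of 5 immune markers only *Cd68* was tested and rose (0.91, SE 0.17), while *Ptprc* and *Adgre1* had group means of at most 0.0649 and 0.0138 CPM. The summed immune level was 7.79 to 14.1 and 14.3 to 22.5 CPM in empty vector control and stimulated cells and 6.44 to 13.7 and 13.3 to 21.9 CPM in sgRNA cells. Of 8 preadipocyte markers 5 were tested, and none was called by edgeR without the block, where none had an unadjusted p under 0.05, or by DESeq2, while *Ly6a* was higher with the block. For the guides averaged over treatments no marker was called by edgeR without the block, where 1 of the brown adipocyte markers reached an unadjusted p below 0.05. With the block, which called 0.266% of all genes, *Cidea* was higher (1.26 without the block, adjusted p = 0.0348 with it) and *Ly6a* lower (-0.74, adjusted p = 0.00491 with it). Their part in the changes of the cAMP genes was not tested, and in bulk RNA fewer cells of a type cannot be told apart from less RNA per cell.

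Promoter sequences are shown for *Adcy3* and *Pde4d*, whose control and stimulated libraries did not overlap, for *Pde4b*, the one higher member with part of a cAMP response element, and for *Prkar1a*, the one member with the full element, which CREB binds. RefSeq windows (GRCm38.p6, 250 bases before to 50 after a start, 300 bases) matched 47 of the 58 symbols with 92 windows. They were searched on both strands for the full element TGACGTCA and for its shorter core TGACG, which every full element also contains. In the lines below capitals mark these letters or their reverse complement, and lines without capitals hold neither motif. Only 1 window each is printed for *Pde4d*, *Pde4b* and *Prkar1a*, so the 9 windows of the higher members are not all shown. For *Pde4b* it is the window that holds the core.
Adcy3, chr12:4133147-4133446, plus strand: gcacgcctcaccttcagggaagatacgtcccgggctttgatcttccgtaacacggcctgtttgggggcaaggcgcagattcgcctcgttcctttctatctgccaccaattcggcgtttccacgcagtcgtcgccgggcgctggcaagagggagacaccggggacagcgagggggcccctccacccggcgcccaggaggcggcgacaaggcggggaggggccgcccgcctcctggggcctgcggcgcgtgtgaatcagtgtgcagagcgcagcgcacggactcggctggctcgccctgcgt
Adcy3, chr12:4133903-4134202, plus strand: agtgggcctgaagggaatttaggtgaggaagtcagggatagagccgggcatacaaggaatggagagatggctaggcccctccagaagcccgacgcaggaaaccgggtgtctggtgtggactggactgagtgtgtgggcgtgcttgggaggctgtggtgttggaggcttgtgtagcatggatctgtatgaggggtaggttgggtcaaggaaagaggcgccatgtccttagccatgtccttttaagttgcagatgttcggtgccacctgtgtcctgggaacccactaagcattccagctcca
Pde4d, chr13:108653927-108654226, plus strand: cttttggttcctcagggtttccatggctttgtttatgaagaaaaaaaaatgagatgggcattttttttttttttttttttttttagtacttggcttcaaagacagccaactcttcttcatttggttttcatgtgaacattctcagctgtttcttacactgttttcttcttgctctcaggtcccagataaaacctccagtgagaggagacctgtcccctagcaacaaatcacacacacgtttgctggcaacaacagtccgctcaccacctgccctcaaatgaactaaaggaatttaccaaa
Pde4b, chr4:102421305-102421604, plus strand: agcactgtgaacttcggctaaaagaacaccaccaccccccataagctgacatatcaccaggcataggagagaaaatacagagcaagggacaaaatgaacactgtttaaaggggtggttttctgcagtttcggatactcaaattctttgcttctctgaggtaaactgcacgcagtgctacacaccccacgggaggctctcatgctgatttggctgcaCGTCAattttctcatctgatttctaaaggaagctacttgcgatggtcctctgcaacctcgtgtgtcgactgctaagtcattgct
Prkar1a, chr11:109650699-109650998, plus strand: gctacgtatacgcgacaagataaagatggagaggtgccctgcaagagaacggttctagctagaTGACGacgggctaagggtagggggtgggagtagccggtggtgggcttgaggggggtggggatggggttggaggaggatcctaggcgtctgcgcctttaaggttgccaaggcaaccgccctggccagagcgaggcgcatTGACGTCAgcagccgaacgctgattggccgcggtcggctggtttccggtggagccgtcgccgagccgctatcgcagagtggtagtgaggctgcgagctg
The full element was found in 2 of 92 member windows, both of *Prkar1a* and overlapping each other, beside 1.79% of 32851 windows of all genes. In the window shown it begins at position -49 relative to the start. The shorter core was present in 20.7% of member windows and in 20.8% of all windows. The 4 members that were higher with isoproterenol with or without the block had 9 windows, of which none held the full element and 1, of *Pde4b*, held the shorter core at position -34. None of the 4 windows of the 3 lower members held either motif. A match is a description of the letters in these windows and does not show that a factor binds there.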

How the data were processed

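Poly(A) RNA of 16 libraries was sequenced paired-end. The authors used cutadapt for trimming and Salmon, with Gencode M22 transcripts (GRCm38) alone or combined with RNAcentral, for quantification, and deposited estimated counts per gene, which are whole numbers. Tool versions, which of these transcript sets was used and the use of read strand are not given in the sources used here. Total counts were 9053521 to 16546187 per library, and all 16 columns were assigned from their titles, with 0 left over. Libraries differed from each other by more than sampling noise.

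Genes were filtered with filterByExpr (minimum count 10, minimum total 15), scaled by TMM and tested with edgeR 4.0.16 (quasi-likelihood, R 4.3.3) on 4 group means, with p-values adjusted by Benjamini-Hochberg over 13150 genes and a gene was called under 0.05 if its log2 fold change was also larger than 0.5 in size. The SE is the log2 fold change divided by the square root of F. CPM are TMM-scaled, and exon lengths are from Gencode annotation of GRCm38. The 7 contrasts were isoproterenol and sgRNA effects, each averaged and within groups, and their interaction. Figures were drawn with matplotlib 3.10.9.

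The members and lists were chosen with earlier results of these data known. Named by rule are all PKA subunits and inhibitors, every member called in any contrast with or without the block, the 3 cyclases, anchors and phosphodiesterases with the highest CPM per kb, and at most 4 called genes of each pathway list. Others were chosen after their values were seen. Alternatives were DESeq2 1.42.0 and its size factors, no filter, the ribosomal RNA share as covariate, the replicate number as block and leaving out libraries or replicates. The remaining ones, without the 3 libraries rich in ribosomal RNA and with the *Pde2a* rows summed, were chosen after seeing the data. Same-numbered libraries deviated together from their group means, with correlations of 0.224 to 0.613 over 24 pairs against a median of -0.21 for different numbers, so the numbers were taken to pair the libraries.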

Additional observations from a re-analysis of the deposited data

Results flagged for a closer look

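In each group of 4 libraries, a named member was examined for a library whose gap to the others was large for the range of the group. Of 92 such groups 10 stood out, where chance alone flags about 1 in 20. *Pkia* accounted for 3 of them, each in replicate 6, with 9.66 CPM in the empty vector control (the others 3.25 to 4.03), 8.74 CPM in the sgRNA control (2.40 to 3.22) and 6.00 CPM in stimulated sgRNA cells (2.72 to 2.84). Replicate 6 of the sgRNA control was also high for *Pde10a* with 1.37 CPM (0.152 to 0.299) and for *Pde6d* with 23.8 CPM (18.6 to 19.4).

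Replicate 5 gave the other 5. In stimulated empty vector cells, where ribosomal RNA took 51.8% of the counts, *Akap1* measured 89.2 CPM (52.4 to 57.8) and *Prkaca* 126 CPM (91.5 to 96.6). *Pde6d* was low in replicate 5 of the empty vector control with 17.3 CPM (19.2 to 19.3), a library with 47.3% ribosomal RNA. In stimulated sgRNA cells replicate 5 was low for *Prkar1b* with 4.00 CPM (7.20 to 7.70) and high for *Adcy9* with 7.77 CPM (6.56 to 6.75). The part of ribosomal RNA in these values was not tested.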

How the results depend on the processing

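Of the 5 members called for isoproterenol, *Adcy3* and *Pde4d* kept their call under all 27 alternatives. Leaving out libraries or replicates gave 2 to 6 members. The lowest count was without replicate 3 (*Adcy3* and *Pde4d*), the highest without replicate 5 of stimulated empty vector cells, and 3 were left without replicate 4, without replicate 5 and without replicate 6 of stimulated empty vector cells, or without the 3 libraries rich in ribosomal RNA. The replicate block called 5 members within empty vector cells and 5 within sgRNA cells. It added *Pde4b* and *Adcy10* to the averaged effect and removed no call from it. *Adcy5* lost its call without any single library other than replicate 5 of stimulated empty vector cells and replicate 6 of stimulated sgRNA cells. *Pde4b* was called under 8 alternatives and *Adcy6* under 2, with the ribosomal RNA share as covariate (-0.53) and without replicate 5 of stimulated empty vector cells (-0.57). DESeq2 called 1 member, a *Pde2a* row, for the guides in stimulated cells. Over 22 named members, 12 of 594 values for isoproterenol and 35 of 594 for the guides changed sign, all of them in results that were not called. With the ribosomal RNA share as covariate, guide effects became 0.23 for *Adcy6*, 0.098 for *Akap1*, -0.12 for *Pde6d*, -0.054 for *Pde1a*, 0.20 for *Pde4b* and 0.44 for *Pde10a*. The covariate also moved the guide effects of *Prkar1b* to -0.54, *Prkaca* to -0.065 and *Adcy3* to 0.40, none called. Without the 3 libraries effects were 0.12 for *Adcy6*, 0.057 for *Akap1* and -0.033 for *Pde6d*. Leaving out libraries or replicates, isoproterenol effects ranged from -0.098 to 0.011 for *Adcy9*, -0.022 to 0.11 for *Pde6d*, -0.11 to 0.020 for *Prkar2b* and -0.44 to 0.048 for *Pkia*. Guide effects ranged from -0.11 to 0.095 for *Adcy6*, -0.12 to 0.078 for *Adcy9*, -0.052 to 0.35 for *Adcy5*, -0.24 to 0.092 for *Adcy10*, -0.097 to 0.059 for *Akap1*, -0.030 to 0.096 for *Pde6d*, -0.30 to 0.11 for *Pde4b*, -0.86 to 0.18 for *Pde10a*, -0.050 to 0.11 for *Prkar2b*, -0.097 to 0.029 for *Pkig* and -0.54 to 0.00072 for *Pkia*. The causes were not tested. Control libraries held as few as 2 counts of *Pde10a* and libraries of *Adcy5* 3 to 38, and whether depth limits their calls was not tested.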
